A study of Caenorhabditis elegans with 6 samples.

Results

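Transcripts of 10 Argonaute genes were followed in embryos of the nematode Caenorhabditis elegans mutant for dot-1.1 and in their controls. The genes were alg-1, alg-2, rde-1, ergo-1, prg-1, csr-1, wago-1, wago-4, hrde-1 and nrde-3, found by their sequence names among the 46659 rows of a table of read counts per gene, and all 10 passed the filter on low counts among 17365 genes in all. The double mutants carried dot-1.1(knu339) together with ced-3(n1286), and the controls carried ced-3(n1286) alone, so the ced-3 mutation was common to all 6 libraries (n = 3 for each genotype). DOT-1.1 corresponds to mammalian DOT1L, which methylates a lysine in the globular part of histone H3, and CED-3 is the main cell death caspase of the worm. Eggs were collected by hypochlorite treatment of synchronized egg-laying adults, so each library pools many embryos, and ribosomal RNA-depleted total RNA was sequenced. The labels call the samples biological replicates without saying whether they came from separate cultures, so p-values measure the spread between these samples, which may in part be technical. The study's title links DOT-1.1 deficiency to genes activated through small RNAs, and the comparison asks here whether transcripts of the proteins that hold those small RNAs differed between the genotypes.

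Argonaute proteins bind a small RNA and use its sequence to find target transcripts. In C. elegans the family is unusually large and divided by the kind of small RNA that each member holds. ALG-1 and ALG-2 hold microRNAs. RDE-1 and ERGO-1 hold primary small interfering RNAs, made from foreign double-stranded RNA and from the animal's own transcripts, respectively, and PRG-1 holds the piRNAs of the germ line. Targets recognised by RDE-1, ERGO-1 and PRG-1 are copied by RNA-dependent RNA polymerases into secondary small RNAs, which load onto worm-specific Argonautes. Of these, CSR-1, WAGO-1 and WAGO-4 act in the cytoplasm and in germ granules, HRDE-1 acts in germ line nuclei and NRDE-3 in nuclei of somatic cells.

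Library totals ran from 66316445 to 77957224 counts, and the 10 genes held between 828 and 24290 counts in a library, so counting error was small beside the spread between replicates. Transcripts of dot-1.1 were at 49.3 ± 16.3 CPM (counts scaled to library size, with TMM factors) in the controls and at 42.5 ± 17.9 CPM in dot-1.1; ced-3 embryos (SD, n = 3 each; adjusted p = 0.806, edgeR). The effect of the knu339 allele on this transcript remains not given in the sources used here. Its level therefore does not check the labels. All 10 markers of early zygotic embryos exceeded 3 counts in every library and summed to 227 to 346 CPM, whereas 10 sperm markers summed to 0.964 to 1.45 CPM and 8 markers of adult intestine and cuticle to 2.76 to 5.401 CPM. The early zygotic sum was lower in every double mutant library, at 327 ± 19.3 CPM in the controls and 266 ± 37.9 CPM in the double mutants. It came mostly from lin-26, elt-1, pal-1 and nhr-23, with means of 124, 64.4, 64.7 and 53.3 CPM in the controls. Their double mutant means were 103, 48.6, 48.1 and 52.4 CPM. The other early markers, end-1, end-3, tbx-37, tbx-38, ceh-51 and hlh-27, stayed at or below 8.13 CPM, so this sum says little about them. The adult intestine and cuticle sum was higher in every double mutant library, at 3.37 ± 0.585 CPM in the controls and 5.08 ± 0.302 CPM in the double mutants (SD over 3 libraries per genotype). Most of it came from vit-1, at 1.30 against 1.57 CPM and overlapping, and from rol-6, which was lower in every double mutant library (1.49 against 1.17 CPM). The remaining genes, vit-2, vit-3, vit-4, vit-5, vit-6 and col-19, had higher double mutant means but stayed at or below 0.79 CPM. The libraries differed also in their content of maternal and of late transcripts. The summed level of 10 germ line and maternal markers was 690, 794 and 541 CPM in control replicates 1, 2 and 3 and 350, 816 and 427 CPM in double mutant replicates 1, 2 and 3. Late muscle and epidermis markers, also 10, summed to 3996, 2720 and 3794 CPM in the controls and to 6373, 3460 and 4278 CPM in the double mutants. Double mutant replicate 1 was thus lowest in maternal and highest in late markers, and both replicate 2 libraries were highest in maternal markers. Both of these sums overlapped between the genotypes, although the late sum was higher in each double mutant library than in the control library of its number. In RNA from whole embryos, fewer cells of a type and less RNA per cell cannot be told apart.

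None of the 10 Argonaute genes passed the test between the genotypes (edgeR's quasi-likelihood test, adjusted p over all 17365 genes tested, threshold 0.05). Over all genes tested, 14 were called higher, or 0.0806%, and 0 were called lower, so a count of 0 among 10 genes does not set them apart. At an unadjusted p under 0.05, 0 of the 10 genes passed, against 7.57% of all genes in the higher and 4.5% in the lower direction. The replicate numbers of the labels were taken to pair the libraries, and a fit with the replicate number as a block called 446 genes higher, or 2.57%, and 251 lower, or 1.45%. DESeq2 without the block called 2.23% of all genes higher and 0.587% lower, and 0 of the 10 genes. In the blocked edgeR fit too, none of the 10 genes passed after adjustment, while alg-1, wago-1 and nrde-3 had an unadjusted p under 0.05, which 11.6% of all genes had in the higher and 12.9% in the lower direction. The log2 fold changes (double mutant over control) ran from -0.29 for wago-1 to 0.40 for alg-1 without the block, with a median of -0.05 beside -0.02 over all genes tested. The genotypes did not overlap for alg-1, which was higher in every double mutant library, and for nrde-3, which was lower in every one. The same separation was found for 10.6% of all genes in the higher and for 7.91% in the lower direction.

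**Figure D1:**
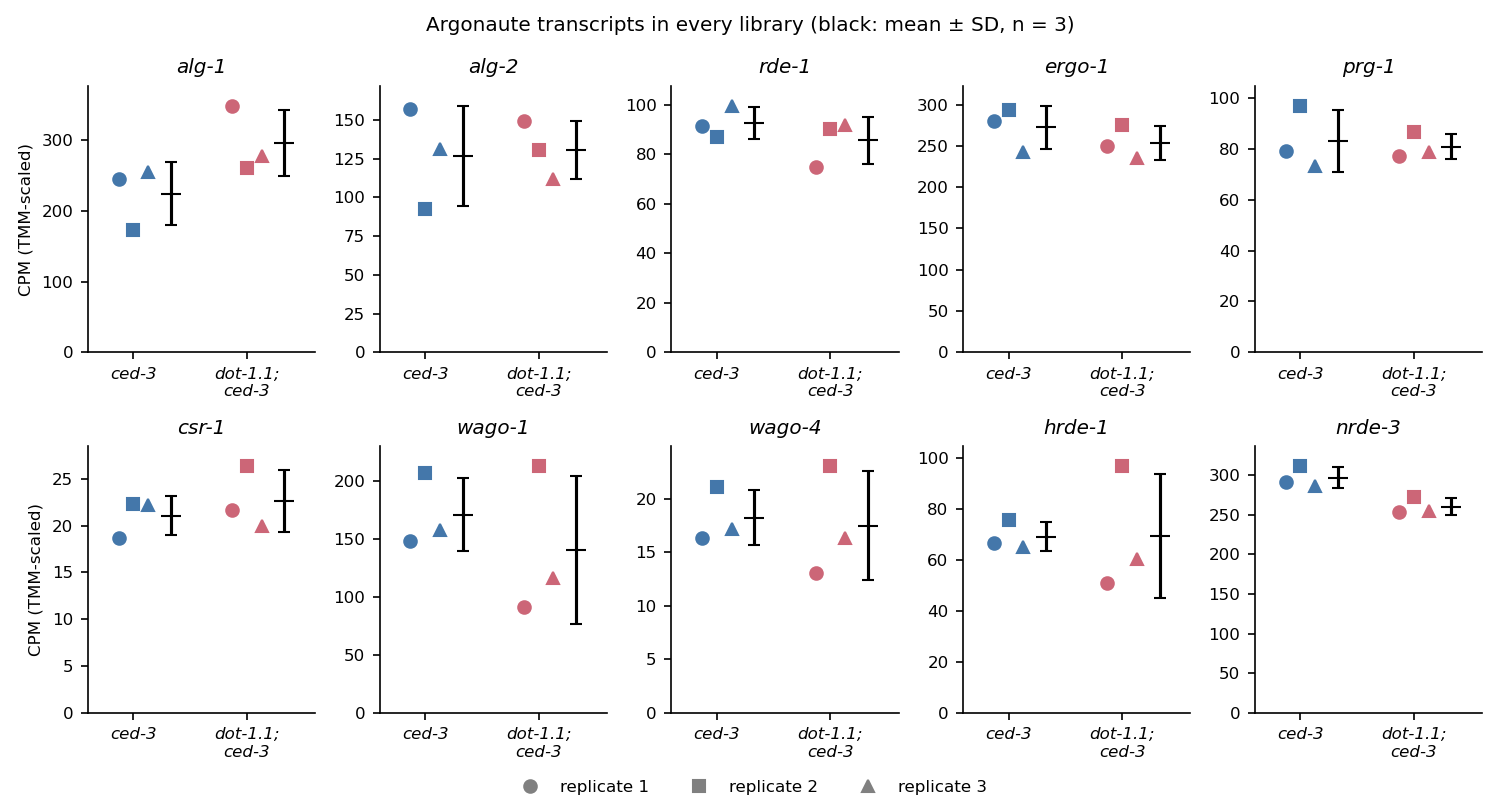
TMM-scaled CPM of the 10 Argonaute genes in each library, by genotype, with a marker shape for each replicate number and the mean ± SD of the 3 libraries in black. The genotypes are separate for alg-1 and nrde-3 and overlap for the other 8 genes, and replicate 2 (squares) is the highest of each genotype for wago-1, wago-4 and hrde-1.

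The microRNA Argonaute gene alg-1 (F48F7.1, WBcel235 chromosome X, 13949110 to 13956261, plus strand) was at 245, 173 and 255 CPM in the controls and at 349, 261 and 278 CPM in the double mutants. The lowest double mutant library lay just above the highest control library. Its fold change was 1.32 with a 95% interval of 0.996 to 1.74, a log2 fold change of 0.40 ± 0.18 SE with an adjusted p of 0.417 in edgeR. With the block the fold was 1.33, with an interval of 1.12 to 1.57 and an adjusted p of 0.0708. The rise within the pairs was 0.51, 0.59 and 0.12 on the log2 scale for replicates 1, 2 and 3. In DESeq2 with the block, an alternative chosen after the data were seen, alg-1 was called higher (log2 fold change 0.41 ± 0.13 SE, adjusted p = 0.0173), as were 5.97% of all genes. It was also called in the blocked edgeR fit without both replicate 2 libraries (0.32 ± 0.10 SE, adjusted p = 0.0318), where 7.81% of all genes were called higher. It was not called without the replicate 1 pair (0.35, adjusted p = 0.390) or the replicate 3 pair (0.58, adjusted p = 0.0871). In these latter fits 9 and 160 of all genes were called higher. Late muscle and epidermis markers followed a partly similar order of libraries, with double mutant replicate 1 highest, double mutant replicate 3 next and control replicate 2 lowest for both. The remaining libraries stood in another order. The sum of adult intestine and cuticle markers, at 2.76 to 5.401 CPM, had the same order as alg-1 over all 6 libraries. Only 5 of these 8 markers exceeded 3 counts in every library. Of the 10 late markers, 7 lay above 0, and all were detected in every library. The median log2 fold change of the 10 was 0.52. Those below 0 were act-4 (-0.05) and the collagen genes dpy-7 (-0.10) and sqt-3 (-0.08). In edgeR with the block 4 of the 10 were called higher, myo-1, myo-2, myo-3 and unc-15, and 0 lower, beside 2.57% and 1.45% of all genes. Of these, myo-1 and myo-2 were higher in every double mutant library. The part of these cell types in the difference was not tested.

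Its paralogue alg-2 (T07D3.7, chromosome II, 873212 to 879885, plus strand), which acts redundantly with alg-1 in embryos, was at 157, 92.3 and 131 CPM in the controls and at 150, 131 and 112 CPM in the double mutants. The groups overlapped throughout, and control replicate 2 was the lowest library for both microRNA Argonautes. The fold change of alg-2 was 1.03 with a 95% interval of 0.757 to 1.41 (adjusted p = 0.941, edgeR). Scaled by exonic length, alg-1 stood at 0.966, 1.16 and 1.21 times the level of alg-2 in the controls and at 1.44, 1.23 and 1.54 times in the double mutants. This ratio of levels was 1.11 ± 0.127 against 1.40 ± 0.156 (SD, n = 3 each) and did not overlap between the genotypes (exact two-sided permutation test, p = 0.1, the smallest that 3 against 3 allows). Over the 4 ratios between members that were compared, the adjusted p of the exact permutation test was 0.4. Reads that fit both paralogues cannot be assigned with certainty, and how the counting treated them remains not given in the sources used here. A snoRNA gene, K02B9.10, lies within alg-1 exons on the same strand and covers 1.43% of their length.

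The primary Argonaute genes were among the steadiest. RDE-1 starts the response to foreign double-stranded RNA, and rde-1 (K08H10.7, chromosome V, 9987916 to 9991642, minus strand) was at 91.6, 86.9 and 99.6 CPM in the controls and at 74.8, 90.2 and 92.0 CPM in the double mutants. Only double mutant replicate 1 lay below the range of the controls. The fold change of rde-1 was 0.924, with an interval of 0.759 to 1.12 and an adjusted p of 0.724 (edgeR). Transcripts of ergo-1 (R09A1.1, chromosome V, 1008803 to 1018352, plus strand), whose protein holds primary small RNAs in oocytes and embryos, were at 281, 294 and 243 CPM in the controls and at 250, 275 and 236 CPM in the double mutants. Each double mutant library was below the control library of its number, by 0.17, 0.09 and 0.04 on the log2 scale, yet the groups overlapped. Its fold change was 0.931, with an interval of 0.765 to 1.13 and an adjusted p of 0.750 (edgeR). Exons of ergo-1 share 17 bases with pei-2 on the other strand.

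The piRNA Argonaute gene prg-1 (D2030.6, chromosome I, 7585329 to 7588367, minus strand) was at 79.2, 96.9 and 73.3 CPM in the controls and at 77.3, 86.7 and 78.7 CPM in the double mutants. All 3 double mutant libraries lay within the range of the controls. The fold change of prg-1 was 0.973 with an interval of 0.788 to 1.20 (adjusted p = 0.920, edgeR). Its exons share 12 bases with D2030.12 on the other strand.

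Among the cytoplasmic Argonautes of secondary small RNAs, csr-1 (F20D12.1, chromosome IV, 7957267 to 7962157, plus strand), whose protein holds small RNAs against genes active in the germ line and is needed for embryonic cell division, was at 18.7, 22.3 and 22.2 CPM in the controls and at 21.6, 26.4 and 19.9 CPM in the double mutants. The groups overlapped, with double mutant replicate 2 highest. The fold change of csr-1 was 1.07 with an interval of 0.830 to 1.39 (adjusted p = 0.812, edgeR). Exons of the neuropeptide receptor gene frpr-10 on the same strand cover 438 bases, or 11.9%, of the csr-1 exons, so part of these counts cannot be assigned to either gene with certainty.

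WAGO-1 silences transposons, pseudogenes and some coding genes from germ granules. Its gene wago-1 (R06C7.1, chromosome I, 7235384 to 7238792, plus strand) had the widest spread of the 10 genes, at 148, 206 and 157 CPM in the controls and at 91.2, 213 and 116 CPM in the double mutants. Double mutant replicates 1 and 3 were below all controls, and double mutant replicate 2 was above them. The fold change was 0.820 with an interval of 0.509 to 1.32 and an adjusted p of 0.711 (edgeR). With the block, the fold was 0.777, with an interval of 0.618 to 0.976 and an adjusted p of 0.170. The call turned on 1 pair. Without both replicate 2 libraries the blocked fit gave a log2 fold change of -0.57 ± 0.09 SE with an adjusted p of 1.79e-05, where 6.39% of all genes were called lower. Without both replicate 1 libraries it gave -0.21 with an adjusted p of 0.570, and without both replicate 3 libraries -0.30 with an adjusted p of 0.496. In these latter fits 2 and 21 of all genes were called lower.

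WAGO-4 carries silencing from parent to offspring, and wago-4 (F58G1.1, chromosome II, 12919551 to 12923377, plus strand) was at 16.3, 21.1 and 17.2 CPM in the controls and at 13.04, 23.03 and 16.3 CPM in the double mutants. Its lowest and highest libraries were both double mutants, as for wago-1. The fold change of wago-4 was 0.960 with an interval of 0.674 to 1.37 (adjusted p = 0.932, edgeR).

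The nuclear Argonaute genes differed in their spread. HRDE-1 maintains heritable silencing in the germ line, and hrde-1 (C16C10.3, chromosome III, 4172337 to 4176159, minus strand) was at 66.7, 75.6 and 64.9 CPM in the controls and at 50.8, 96.7 and 60.4 CPM in the double mutants. The double mutants lay on both sides of the controls, with control and double mutant means of 69.1 ± 5.72 and 69.3 ± 24.2 CPM (SD, n = 3 each). Its fold change was 1.00 with an interval of 0.707 to 1.42 (adjusted p = 0.997, edgeR), and its direction turned in 7 of the 15 alternative fits. NRDE-3 brings small RNAs into the nuclei of somatic cells, where it acts on transcription, and nrde-3 (R04A9.2, chromosome X, 372235 to 376900, plus strand) was at 292, 312 and 287 CPM in the controls and at 254, 273 and 255 CPM in the double mutants. Each control library was above each double mutant library, and the pairs differed by -0.20, -0.19 and -0.17 on the log2 scale. The fold change of nrde-3 was 0.878, with an interval of 0.739 to 1.04 and an adjusted p of 0.511 (edgeR). The blocked fit gave the same fold with an interval of 0.773 to 0.997 and an adjusted p of 0.196.

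**Figure D2:**
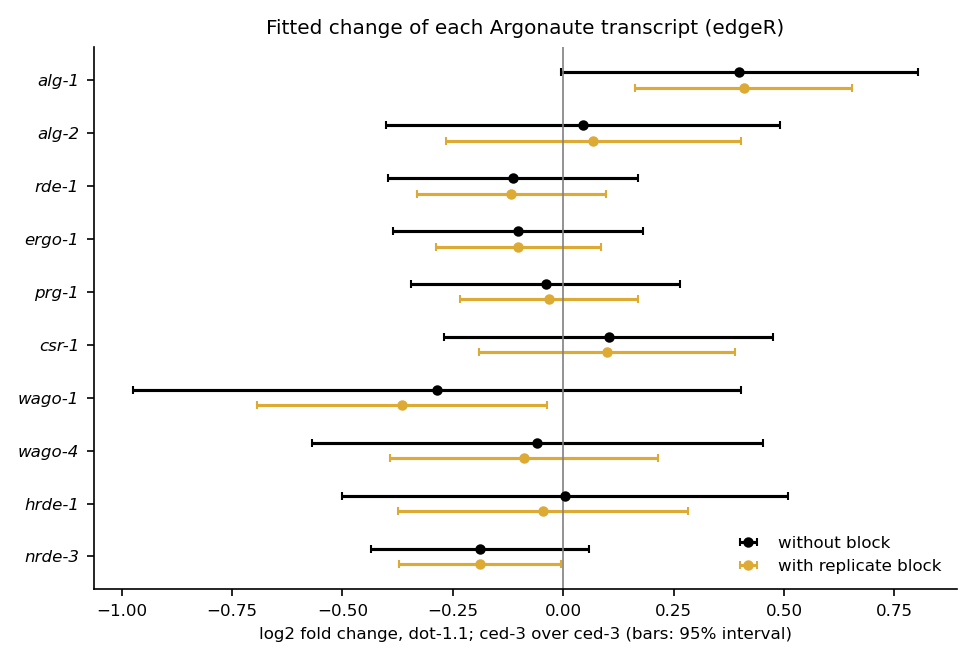
Log2 fold change of each Argonaute gene (double mutant over control) with its 95% interval, without the block in black and with the replicate block in yellow. The intervals without the block all include 0, and with the block those of alg-1, wago-1 and nrde-3 do not, although their adjusted p-values of 0.0708, 0.170 and 0.196 miss the threshold.

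The transcripts of wago-1, wago-4 and hrde-1 moved together across the libraries. Over the 6 libraries, Pearson's r of the log2 CPM was 0.96 between wago-1 and wago-4, 0.92 between wago-1 and hrde-1 and 0.96 between wago-4 and hrde-1, given as a description over libraries that share depth and genotype. These were the highest values among all pairs of the 10 genes. All 3 genes were highest in double mutant replicate 2, next in control replicate 2 and lowest in double mutant replicate 1. The same places were taken by the summed germ line and maternal markers, at 816, 794 and 350 CPM in these libraries, all 10 of which were present. In wago-1 the highest library was 2.33 times the lowest, in hrde-1 1.90 times and in wago-4 1.77 times, compared with 1.23 times in nrde-3, 1.25 times in ergo-1 and 1.32 times in prg-1. In all, 7 of the 10 genes were highest in one of the replicate 2 libraries, namely ergo-1, prg-1, csr-1, wago-1, wago-4, hrde-1 and nrde-3, whereas alg-1 and alg-2 were lowest in control replicate 2. Within the pairs, 8 of the 10 genes were lower in the double mutant in replicate 1, 3 in replicate 2 and 8 in replicate 3. The share of all tested genes with these patterns was not counted, so they are not shown to be particular to the Argonaute genes. The part of maternal RNA or embryo age in these differences was not tested.

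**Figure D3:**
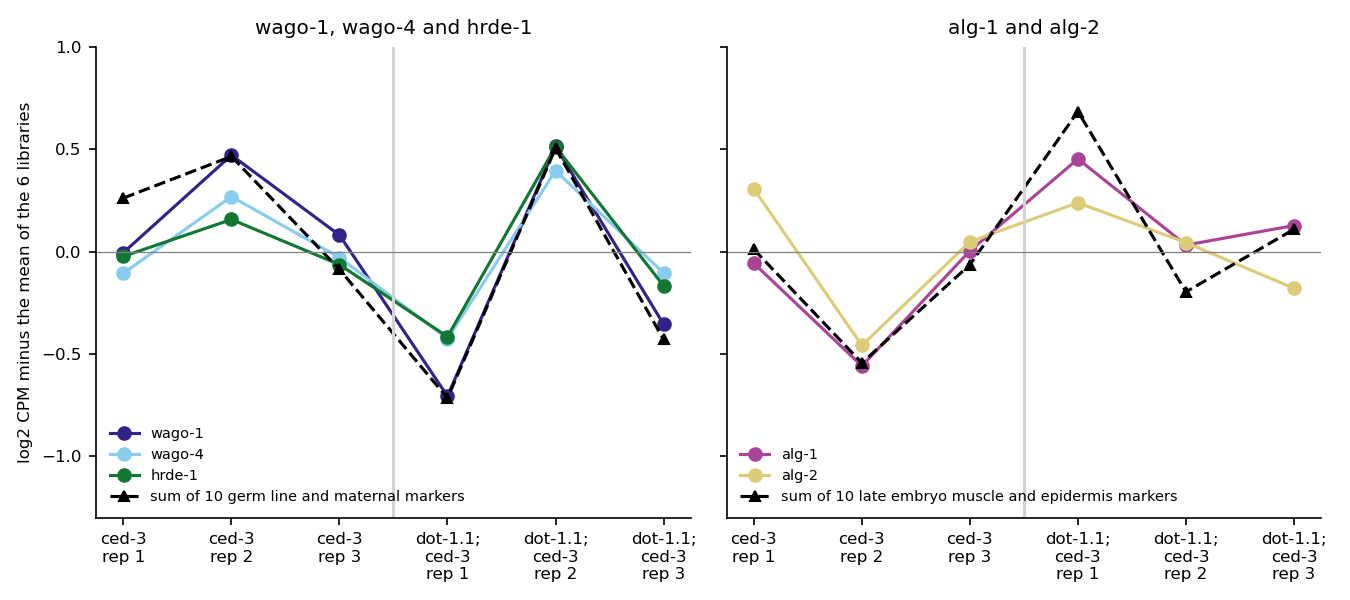
Log2 CPM in each library minus the mean of the 6 libraries, for wago-1, wago-4 and hrde-1 with the sum of 10 germ line and maternal markers (left), and for alg-1 and alg-2 with the sum of 10 late muscle and epidermis markers (right). The 3 genes on the left and the maternal markers peak in both replicate 2 libraries and are lowest in double mutant replicate 1, where alg-1 and the late markers are highest.

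Levels between genes were compared as CPM per kb of annotated exons. In this measure nrde-3 was highest, at 86.3 ± 3.81 in the controls and 75.7 ± 3.18 in the double mutants, and ergo-1 was next, at 74.5 ± 7.20 and 69.4 ± 5.50 (SD, n = 3 each). Together nrde-3 and ergo-1 held 42.1% of the length-scaled sum over the 10 genes. They were followed by wago-1 (50.9 as the mean of the 6 libraries), alg-1 (38.9), alg-2 (31.1), prg-1 (30.8), rde-1 (27.7) and hrde-1 (19.6), and the lowest were csr-1 (5.96) and wago-4 (5.29). The level of nrde-3 was 15.3 times that of wago-4. Neighbours in this order overlapped in their ranges over the libraries, except that hrde-1, at 14.4 or more, did not overlap csr-1, at 7.19 or less. Within libraries, nrde-3 was above ergo-1, ergo-1 above wago-1 and rde-1 above hrde-1 in 6 of 6, while alg-2 was above prg-1 in 3 of 6. Annotated exons of alg-1 span 6696 bases over 4 transcripts, more than in any other of the 10 genes, and a shorter expressed form would make its scaled level too low.

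The 10 genes were grouped by the small RNA they hold and where they act, alg-1 with alg-2, rde-1 with ergo-1, prg-1 alone, csr-1 with wago-1 and wago-4, and hrde-1 with nrde-3. The other Argonaute rows found with an exonic length formed a class of their own, which included alg-5 and the pseudogenes C14B1.7 and H10D12.2. It held 13.8% ± 0.497 of the length-scaled sum over these rows and the 10 genes in the controls and 13.5% ± 0.588 in the double mutants (SD, n = 3). The share of this sum was close to constant for the primary class, rde-1 with ergo-1, at 24.0% ± 0.638 (SD, n = 3) in the controls and 23.5% ± 0.802 (SD, n = 3) in the double mutants. The class of alg-1 and alg-2 held 17.4%, 10.8% and 16.7% in the controls and 22.8%, 15.4% and 17.8% in the double mutants, which overlapped. For the cytoplasmic class of secondary small RNAs the shares were 13.7%, 17.9% and 15.0% against 10.2%, 18.3% and 12.6%. The nuclear class was lower in every double mutant library, at 22.8%, 23.3% and 23.6% against 24.2%, 25.1% and 24.3% in the controls, a difference that has no test of its own, in a class made up mostly of nrde-3. Shares of a sum are bound to each other, so a rise of one class lowers the rest.

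**Figure D4:**
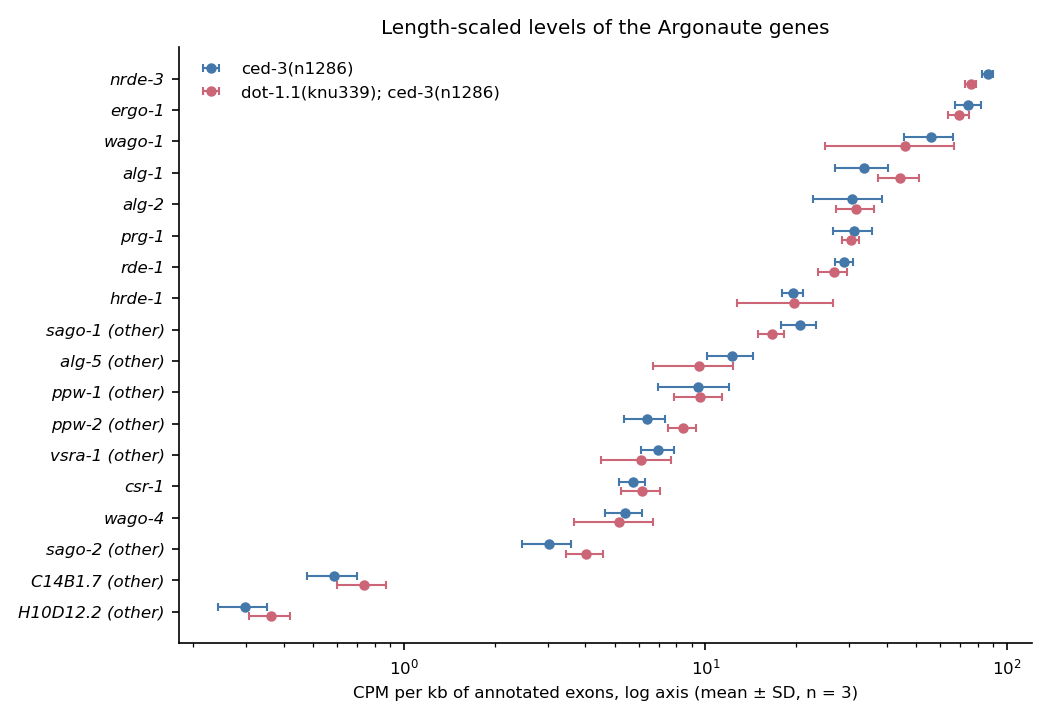
Length-scaled level (CPM per kb of annotated exons, log axis, mean ± SD of 3 libraries per genotype) of the 10 Argonaute genes and of the other Argonaute rows above 0.2 CPM per kb. The levels of nrde-3 and ergo-1 are highest, and csr-1 and wago-4, at 5.96 and 5.29 as means of the 6 libraries, are the lowest of the 10.

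Of 16 other Argonaute genes listed, 13 were found under their names and 10 were tested, of which 0 passed in edgeR with or without the block. DESeq2 with the block, chosen after the data were seen, called ppw-2 higher (adjusted p = 0.0158) and alg-5 and sago-1 lower (0.0487 and 0.0405), beside 5.97% of all genes higher and 5.61% lower. Over the 10 tested rows the median log2 fold change was 0.23 without the block in edgeR, with 7 above 0 and 3 below. Those above 0 included the pseudogenes C14B1.7 (0.33) and H10D12.2 (0.29) and the row M03D4.6 (0.18), which matched no annotated gene. They also included wago-5 (1.13 ± 1.04 SE), which had 0 to 38 counts per library. The rest were ppw-1 (0.02), ppw-2 (0.40) and sago-2 (0.41) above 0, and alg-5 (-0.36), sago-1 (-0.31) and vsra-1 (-0.20) below. The most abundant was sago-1 (K12B6.1, chromosome V, 6303771 to 6308337), whose protein holds secondary small RNAs. It was at 59.8, 57.3 and 73.0 CPM in the controls and at 50.0, 46.6 and 56.3 CPM in the double mutants, so that the groups did not overlap (adjusted p = 0.414, edgeR, and 0.0757 with the block). The next were alg-5, which belongs to the microRNA branch and is expressed in the germ line, at 38.1 ± 6.69 against 29.6 ± 8.74 CPM, and ppw-1, at 29.4 ± 7.80 against 29.8 ± 5.44 CPM (SD, n = 3 each). Two-sided tests gave adjusted p-values of 0.528 for alg-5 and 0.978 for ppw-1 in edgeR. Named after their values were seen, ppw-2 and sago-2 were higher in every double mutant library, at 27.4 ± 2.95 against 20.8 ± 3.23 CPM for ppw-2 (adjusted p = 0.393, edgeR). For sago-2 the levels were 11.8 ± 1.67 against 8.87 ± 1.63 CPM (adjusted p = 0.459, edgeR). In ppw-2 the blocked fit gave an adjusted p of 0.0727. The Argonautes of sperm formation, alg-3 and alg-4, had 0 to 12 and 0 to 52 counts per library and were not tested, beside sperm markers that were near 0.

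Of the other small RNA pathway genes, 66 of 71 listed were found and tested, with 0 called in edgeR without the block. DESeq2 without the block called 0 higher and 2 lower, tofu-2 and pid-1, beside 2.23% and 0.587% of all genes. In edgeR with the block 0 were called higher and 2 lower, beside 2.57% and 1.45% of all genes. Their median log2 fold change was -0.22 beside -0.02 over all genes tested, with 14 above 0 and 52 below. At an unadjusted p under 0.05, 5 of the 66 were lower and 0 higher in edgeR without the block, beside 4.5% of all genes lower and 7.57% higher. The germ line and maternal markers had a median of -0.31 and the early zygotic markers one of -0.42, each with 10 of 10 below 0. The part of maternal RNA or embryo stage in the pathway genes was not tested.

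Among 13 genes of Dicer and of primary small RNAs the median was -0.22, and pir-1 (T23G7.5, chromosome II, 9177300 to 9178633), an RNA phosphatase that binds Dicer, fell in edgeR with the block. It was at 75.3, 76.3 and 60.3 CPM in the controls and at 48.7, 61.6 and 41.2 CPM in the double mutants, which overlapped by 1 library (log2 fold change with the block -0.50 ± 0.09 SE, adjusted p = 0.0359, edgeR; without it -0.48 ± 0.17 SE, adjusted p = 0.335). In edgeR with the block, pir-1 was still called without the replicate 2 pair (adjusted p = 0.000211), where 6.39% of all genes were lower. It was not called without the replicate 1 pair (log2 fold change -0.44, adjusted p = 0.242) or the replicate 3 pair (-0.44, adjusted p = 0.188). In these latter fits only 2 and 21 of all genes were called lower, against 251 with all pairs. Exons of pir-1 share 120 bases, or 12.085%, with sym-2 and with twk-4 on the other strand. Dicer itself, dcr-1, was at 236 ± 8.71 against 209 ± 10.004 CPM, and rde-4, its partner in binding double-stranded RNA, at 53.7 ± 4.52 against 46.0 ± 1.504 CPM (SD, n = 3 each). The adjusted p was 0.527 for dcr-1 and 0.479 for rde-4 (edgeR). The exonuclease gene eri-1 was at 53.8 ± 9.57 against 42.2 ± 7.59 CPM (adjusted p = 0.463, edgeR). In DESeq2 with the block 4 genes of this list were called lower, beside 5.61% of all genes. They were pir-1 (adjusted p = 0.00106), drsh-1 (0.0120), eri-1 (0.0187) and eri-5 (0.0497).

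In the list of RNA-dependent RNA polymerases and Mutator factors, which make secondary small RNAs, 15 of 16 genes lay below 0 with a median of -0.25, and 0 passed in either edgeR fit. DESeq2 with the block called 4 lower, smut-1 (adjusted p = 0.0160), mut-2 (0.0188), rrf-1 (0.0218) and drh-3 (0.0261), beside 5.61% of all genes. The polymerase gene rrf-1 was at 229 ± 21.9 against 185 ± 29.5 CPM, and mut-16, which organises Mutator foci, at 129 ± 15.7 against 108 ± 9.70 CPM (SD, n = 3 each). The helicase gene rde-12 was at 190 ± 21.0 against 200.5 ± 19.9 CPM. The adjusted p of these genes in edgeR was 0.436 for rrf-1, 0.466 for mut-16 and 0.823 for rde-12.

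Of 14 genes listed around the piRNA pathway, 13 lay below 0 with a median of -0.25, and tofu-2 fell in edgeR with the block. Transcripts of tofu-2 (F20A1.9, chromosome V, 7049434 to 7051248), needed to process piRNA precursors, were at 8.17, 14.6 and 9.50 CPM in the controls and at 5.79, 6.83 and 5.61 CPM in the double mutants. Its groups did not overlap (log2 fold change with the block -0.79 ± 0.17 SE, adjusted p = 0.0444, edgeR; without it -0.82 ± 0.24 SE, adjusted p = 0.277). This call, too, held without the replicate 2 pair (adjusted p = 0.0268, edgeR with the block), where 6.39% of all genes were lower. It was lost without the replicate 1 pair (log2 fold change -0.94, adjusted p = 0.192) and without the replicate 3 pair (-0.77, adjusted p = 0.178). In these latter fits only 2 and 21 of all genes were called lower. The largest difference in the list was that of pid-1, named after its values were seen, at 4.31 ± 0.707 against 2.20 ± 0.568 CPM (SD, n = 3 each; edgeR, adjusted p = 0.237 without and 0.0561 with the block). In DESeq2 pid-1 was called lower without the block (adjusted p = 0.0204) and with it (0.00575), as was tofu-2 (0.0422 and 0.00136). The more abundant genes of this list, tost-1, snpc-4 and tofu-6, had log2 fold changes of -0.32 ± 0.27, -0.01 ± 0.12 and -0.32 ± 0.17 SE. None of these passed in either edgeR fit, with adjusted p-values of 0.652, 0.981 and 0.472 without the block. DESeq2 with the block also called tost-1 (adjusted p = 0.0323), tofu-6 (0.0351) and hrde-2 (0.0397) lower, 5 of the list in all, beside 5.61% of all genes.

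Of 15 factors of nuclear RNAi and inheritance, 0 passed in either edgeR fit, and the median was -0.17. DESeq2 with the block called nrde-4 (adjusted p = 0.00974) and hrde-4 (0.0297) lower, beside 5.61% of all genes. The most abundant, nrde-2, which acts with NRDE-3 and HRDE-1 in nuclei, was at 271 ± 17.8 against 250.0 ± 30.6 CPM. The histone methyltransferase gene met-2 was at 190 ± 7.03 against 192 ± 6.54 CPM (SD, n = 3 each). For nrde-4 the levels were 99.3 ± 15.99 against 75.7 ± 17.4 CPM (adjusted p = 0.437, edgeR).

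Of 8 partners of the microRNA complex, 6 lay above 0 with a median of 0.09, and 0 passed in either edgeR fit. DESeq2 with the block called nhl-2 higher (adjusted p = 0.00837), beside 5.97% of all genes. The GW182-like genes ain-1 and ain-2, whose proteins bind ALG-1 and ALG-2, were at 283 ± 46.8 against 319 ± 33.9 CPM and at 284 ± 1.35 against 327 ± 32.8 CPM (SD, n = 3 each). The poly(A)-binding protein gene pab-1 was at 1144 ± 85.5 against 1236 ± 166 CPM. The adjusted p was 0.650 for ain-1, 0.511 for ain-2 and 0.761 for pab-1 (edgeR).

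**Figure D5:**
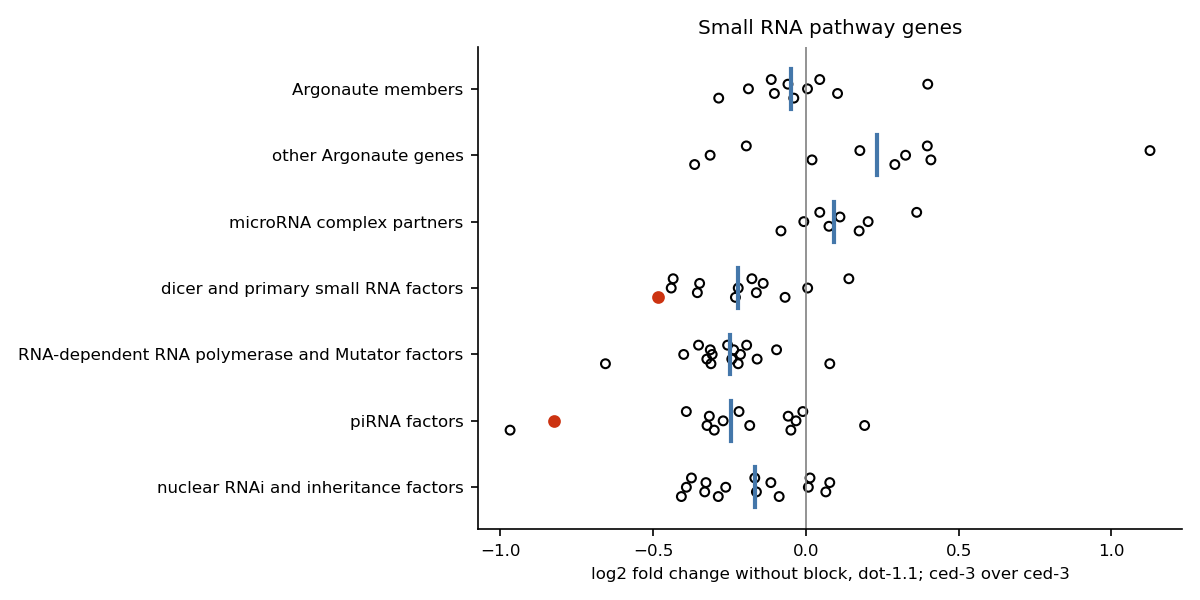
Log2 fold change without the block (double mutant over control) of each tested gene in the Argonaute and small RNA pathway lists, with the list median as a blue bar and the genes called in edgeR with the replicate block, pir-1 and tofu-2, in filled red. The medians of the polymerase, Dicer and piRNA lists lie between -0.25 and -0.22, and that of the microRNA partners at 0.09.

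The genes whose pattern over the 6 libraries was most like that of alg-1, the gene with the smallest p among the 10, were ceh-33 (chromosome V, 5323194 to 5324666), K01A6.16 (chromosome IV, 11718865 to 11719008) and kin-2 (chromosome X, 5970647 to 5977854). Their Pearson's r with alg-1 was 0.993, 0.989 and 0.986 over the log2 CPM of 6 libraries. With so few libraries, 124 tested genes had an r over 0.95. The homeobox gene ceh-33 and the non-coding RNA gene K01A6.16 were below 2.07 CPM in every library. Of these genes, kin-2, the regulatory subunit of protein kinase A, was at 119, 85.8 and 124 CPM in the controls and at 159, 115 and 130 CPM in the double mutants, which overlapped (adjusted p = 0.517, edgeR).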

How the data were processed

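Whole-number read counts per gene were deposited by the authors in 1 table with a column for each of the 6 libraries, matched to samples through the labels' descriptions. Per the submitters' processing notes, HISAT2 2.0.5 aligned the reads to WBcel235, and StringTie was also run. The counting program, its use of strand and its treatment of reads that fit several genes remain not given in the sources used here. Values for paralogues and overlapping genes are therefore uncertain. Names, positions and exonic lengths (union of annotated exons) came from the Ensembl annotation of WBcel235, which matched 46180 of 46659 rows.

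The test was run in edgeR 4.0.16 (R 4.3.3): filterByExpr kept 17365 genes, libraries were scaled by TMM, and genotype was the only term of a robust quasi-likelihood test, two-sided, with Benjamini-Hochberg adjustment over all genes tested and a threshold of 0.05. Standard errors and 95% intervals came from this fit. On simulated counts the fit was checked for recovery of added changes only, so the coverage of the intervals was not tested. Replicates of a genotype differed beyond sampling noise (chi-square per degree of freedom of 109 to 211). After each genotype's mean was subtracted, same-numbered libraries correlated at 0.169 to 0.320 and the rest at -0.239 to 0.0587. Because all 3 pairs exceeded 0.1, replicate numbers were treated as pairs, on the evidence of these data, in a fit with a replicate block. The labels state no pairing, although their descriptions number both genotypes alike (ced1, ced4 and ced5 beside dot1, dot4 and dot5). The block lowered the biological coefficient of variation from 0.265 to 0.201. DESeq2 1.42.0, other scalings, no filter and fits without single libraries were further alternatives.

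The 10 genes, the gene lists and the markers were chosen with earlier results of these data known. All 10 Argonaute genes were described; from other lists, genes called in either fit and up to 3 of the highest length-scaled level were named. Of the listed names, prg-2, wago-2, wago-11, eri-10, mut-8, cde-1, ntl-1 and tofu-3 were not matched and are not analysed here. No sequences were used.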

Additional observations from a re-analysis of the deposited data

How the results depend on the processing

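Over 150 alternative values of the 10 fold changes, 17 had the opposite sign, all from alg-2, prg-1, wago-4 and hrde-1, none of which passed the test in any fit. The other 6 genes kept their direction. Leaving out each library in turn gave log2 fold changes of -0.13 to 0.24 for alg-2, -0.12 to 0.0879 for prg-1, -0.28 to 0.10 for wago-4, -0.28 to 0.17 for hrde-1, 0.25 to 0.51 for alg-1 and -0.69 to -0.06 for wago-1. Upper-quartile scaling put prg-1 at 0.0331 and wago-4 at 0.00751, and hrde-1 was at -0.00877 with no filter, at -0.0463 with the replicate block and at -0.0429 in DESeq2 with the block. With the block and 1 pair left out, alg-2 ranged from -0.15 to 0.24, prg-1 from -0.07 to 0.0332, wago-4 from -0.20 to 0.0143 and hrde-1 from -0.25 to 0.11.

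Over all genes, the 14 higher and 0 lower calls became 28 higher with upper-quartile scaling, 4 higher with no filter, 387 higher and 102 lower in DESeq2, 446 and 251 with the replicate block, and 1037 and 975 in DESeq2 with the block. Without single libraries they ranged from 1 to 42 higher and 0 to 1 lower, and with the block and 1 pair left out they came to 9, 1361 and 160 higher and 2, 1115 and 21 lower without pair 1, 2 and 3. The Argonaute genes had 0 calls under the other scalings, with no filter, in DESeq2, with the replicate block and without each single library. Among the fits added after the data were seen, DESeq2 with the block gave 1 higher, alg-1, and the blocked fits without a pair 0 to 1 higher and 0 to 1 lower. Of the 10 other Argonaute genes tested, 1 was higher and 2 were lower in DESeq2 with the block. The blocked fits without a pair called 0 to 1 of them lower. Of the 66 pathway genes, 2 were lower in DESeq2, beside 0.587% of all genes, and 2 with the replicate block, beside 1.45%. In DESeq2 with the block 15 of the 66 were lower and 1 was higher. Over all genes this fit called 5.61% lower and 5.97% higher. Blocked fits without a pair called 0 to 18 of the pathway genes lower and 0 to 1 higher. The most were called without pair 2, where 6.39% of all genes were lower and 7.81% higher. The cause of these shifts was not tested.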
